A study of Mus musculus with 10 samples.

Results

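MLL-AF9 leukemia cells exposed to the DOT1L inhibitor EPZ5676 were compared directly with the same cells exposed to the MENIN inhibitor MI-2-2. The comparison took both libraries of each inhibitor, 4 of the 10 RNA-sequencing libraries of the study, and set them against each other gene by gene without passing through the DMSO libraries. All groups were MAF9 cells, a culture made by transduction of C57BL/6 mouse marrow with MLL-AF9. The cells were kept in interleukin-3 at 10 ng/ml and serum at 15% and treated for 4 days. Each inhibitor was given at its own growth-inhibitory dose, so that the compared groups are matched for time but not for concentration. A match in effect on growth is nominal, as it rests on that dose, and growth of these cultures is not given. The labels name the agents EPZ and MI, and their treatment protocol has MI-2 where the paper has MI-2-2. MI-2 and MI-2-2 are names of related but different MENIN inhibitors, and the labels do not settle which was used, so that the name here follows the paper. The labels call the dose the IC50 and give no concentration. The MM-401 and iBET libraries, 2 each, served as a scale for the size of the difference, and the 2 DMSO libraries appear only as levels beside some genes. MAF9 is a single transduced culture model, and the labels do not say whether duplicates came from separate transductions, so the p-values measure the spread between these libraries.

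DOT1L is the methyltransferase of lysine 79 on histone H3, a mark laid down along transcribed genes, and MLL-AF9 carries DOT1L to its target genes through the AF9 moiety. MENIN is the adaptor that binds the N-terminal end of MLL1 and of MLL fusion proteins and tethers them to chromatin. EPZ5676 blocks the catalytic site of DOT1L, whereas MI-2-2 occupies the pocket of MENIN that holds the MLL N-terminus. Both therefore act on the fusion protein, at different points, and the late Hoxa genes with the cofactor gene Meis1 are the best-known genes kept on by it in myeloid leukemia.

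The EPZ5676 libraries held 21249483 and 23505117 counted reads and the MI-2-2 libraries 23793470 and 29473127. Levels are given as CPM, read counts scaled to library size with TMM factors, for which 1 read was worth between 0.0365 and 0.0483 CPM in these 4 libraries. Of 24015 genes counted, 12597 passed the filter on low counts and were tested. The 4 libraries carried the markers of myeloid cells of the label. Of 12 progenitor markers 11 were tested, with Ptprc (CD45, carried by all blood cells) at 798 and 875 CPM with EPZ5676 and at 859 and 1009 CPM with MI-2-2, and Kit (the stem cell factor receptor) at 138 and 111 CPM against 82.6 and 82.8 CPM. Cd34, a surface marker of early progenitors, was below 1 CPM in all 4. Markers of other lineages were mostly low. The alpha- and beta-globin genes had no read, 25 lymphoid genes summed to between 13.5 and 22.6 CPM, and 16 mast cell, basophil and eosinophil genes to between 43.7 and 64.3 CPM. The 18 erythroid and megakaryocyte genes summed to 587.5 and 628.2 CPM with EPZ5676 and to 333.7 and 354.4 CPM with MI-2-2. Tfrc (the transferrin receptor), at 552 and 579 CPM against 302 and 279 CPM, made up most of these sums. The 16 stromal and endothelial genes summed to 207 and 62.7 CPM with EPZ5676 and to 98.1 and 46.0 CPM with MI-2-2. Fn1 (fibronectin) made up most of the sum in the replicates 1, while Col1a2, Col3a1, Dcn and Lum had no read.

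The genes that separated the inhibitors most clearly were few. At an adjusted p below 0.05 in edgeR's quasi-likelihood test, 3 of 12597 genes (0.0238%) were called, 1 higher with EPZ5676 and 2 higher with MI-2-2, and 1153 genes had an unadjusted p below 0.05. The called genes were Csn2, Irx5 and Fcnb. None of them is in the lists used below for the MLL fusion program and for the complexes the inhibitors target.

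Csn2, the gene of the milk protein beta-casein and a classic target of STAT5, was at 25.4 and 36.5 CPM with EPZ5676 and at 451 and 427 CPM with MI-2-2. The MI-2-2 libraries were thus 14.2-fold higher on average, far above the spread within either pair (log2 ratio of EPZ5676 over MI-2-2 -3.82, SE 0.21, adjusted p = 0.0333). In the other 6 libraries Csn2 lay between 3.16 CPM (DMSO replicate 2) and 81.5 CPM (iBET replicate 1), so that the EPZ5676 values fell inside that range and the MI-2-2 values above it. Irx5, a homeobox factor of the Iroquois family, was at 3.77 and 4.76 CPM with EPZ5676 and at 34.0 and 37.8 CPM with MI-2-2 (8.43-fold higher with MI-2-2, log2 ratio -3.06, SE 0.19, adjusted p = 0.0401). Here the MI-2-2 libraries were the ones close to MM-401 (24.5 and 27.9 CPM) and iBET (36.3 and 26.8 CPM), and the EPZ5676 libraries lay below all of these. The DMSO duplicates were far apart for Irx5, at 16.5 CPM in replicate 1 and 0.191 CPM in replicate 2. DMSO replicate 2 was thus below both EPZ5676 libraries. Fcnb, the gene of ficolin B, a lectin that myeloid cells use to recognize microbes, was at 128 and 132 CPM with EPZ5676 and at 24.6 and 22.5 CPM with MI-2-2 (5.52-fold higher with EPZ5676, log2 ratio 2.48, SE 0.13, adjusted p = 0.0333). Both inhibitors had more Fcnb than the other 6 libraries, which lay between 0 and 6.07 CPM. The calls rested on both EPZ5676 libraries: without EPZ5676 replicate 1 or without EPZ5676 replicate 2, no gene was called (1220 and 674 genes at an unadjusted p below 0.05), whereas 11 and 26 genes were called without MI-2-2 replicate 1 and replicate 2, and DESeq2 called 252 with all 4. In the fit of all 10 libraries, which share 1 spread, none of the 3 genes passed (adjusted p = 0.364 for Fcnb, 0.376 for Csn2 and 0.629 for Irx5), nor did they with the replicate number added (0.208, 0.174 and 0.368). Without an EPZ5676 library the adjusted p of the 3 genes lay between 0.219 and 0.398. Their log2 ratios in those fits stayed close to the values above, from -3.60 to -4.09 for Csn2, from -2.93 to -3.22 for Irx5 and 2.47 in both fits for Fcnb.

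The promoters of Csn2 and Fcnb, from 250 bases before to 50 bases after the transcription start, are shown to set the called genes with the opposite directions side by side. They come from RefSeq on GRCm38.p6, which is not the mm9 build of the counts, at chr5:87699376-87699675 on the minus strand for Csn2 and chr2:28084829-28085128 on the minus strand for Fcnb. Capitals mark TTCNNNGAA, the palindromic motif bound by STAT factors, which was searched because Csn2 is a textbook STAT5 target.
Csn2: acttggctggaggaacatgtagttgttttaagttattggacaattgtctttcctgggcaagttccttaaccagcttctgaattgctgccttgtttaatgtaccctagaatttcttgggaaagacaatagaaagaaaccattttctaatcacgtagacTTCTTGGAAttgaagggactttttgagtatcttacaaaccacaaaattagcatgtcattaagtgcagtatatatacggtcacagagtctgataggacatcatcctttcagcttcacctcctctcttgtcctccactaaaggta
Fcnb: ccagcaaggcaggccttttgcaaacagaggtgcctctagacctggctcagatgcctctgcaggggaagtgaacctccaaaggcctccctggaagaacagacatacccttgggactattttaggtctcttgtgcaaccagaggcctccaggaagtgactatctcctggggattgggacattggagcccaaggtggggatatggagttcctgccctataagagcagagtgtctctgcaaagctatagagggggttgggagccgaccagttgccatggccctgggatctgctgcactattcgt
The Csn2 promoter held 1 match, TTCTTGGAA, which begins 93 bases before the start, and the Fcnb promoter held 0. The motif reads the same on both strands, and 2726 of 32851 promoters of this length (8.3%) hold it. A match in the letters says nothing of binding in these cells.

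**Figure D1:**
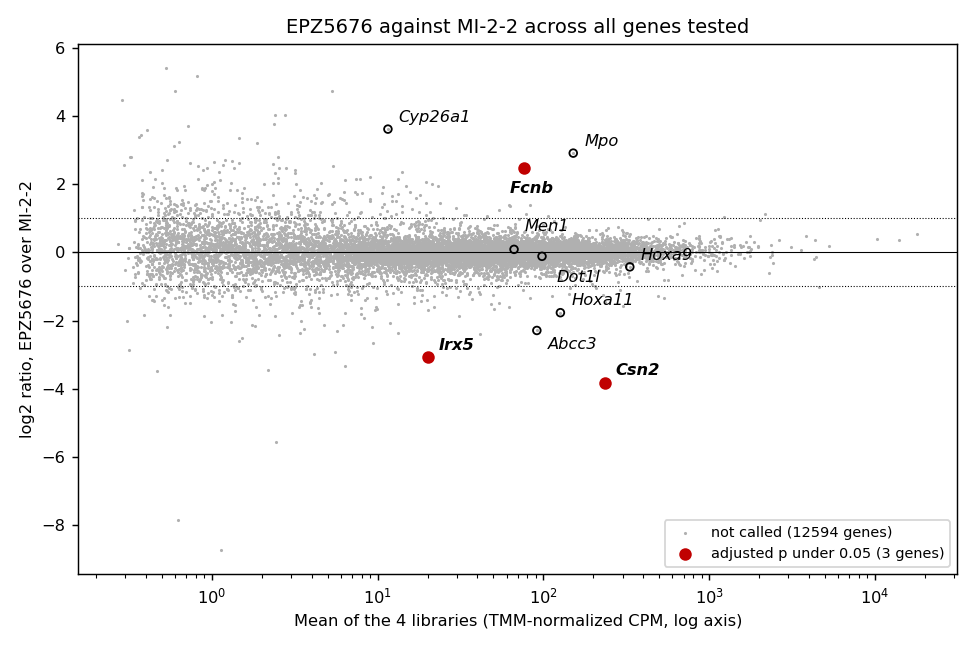
Each point is 1 of the 12597 genes tested, placed by its mean over the 4 libraries (x axis, TMM-normalized CPM, log scale) and by its fitted log2 ratio of EPZ5676 over MI-2-2 (y axis), with dotted lines at 2-fold. Red points are the 3 called genes, open circles other genes named in the text, and Dot1l and Men1 lie near 0. Fitted ratios of genes with no read in a group, at the bottom of the plot, depend on the prior count and are no estimate of size.

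The distance between the inhibitors was small over the transcriptome as a whole. The median absolute log2 ratio over the 12597 genes was 0.173, and 90 of 100 genes lay within 0.635. For 8962 genes (71.1%) the 95% interval of the ratio lay inside 2-fold in both directions, which is a statement on each of those genes, whereas a missed p for the remaining genes does not show that they are alike. Against inhibitors with other targets the same cells stood much further off. In fits of the same size, 5702 of 12506 genes (45.6%) were called between EPZ5676 and MM-401, 6425 of 12504 (51.4%) between MI-2-2 and MM-401, 5583 of 12412 (45%) between EPZ5676 and iBET and 6122 of 12455 (49.2%) between MI-2-2 and iBET. The median absolute log2 ratio was between 0.496 and 0.521 in these comparisons, which share the EPZ5676 or MI-2-2 libraries with the first. The difference between these counts and the 3 genes was not itself tested.

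By a rule of size alone, a log2 ratio of mean levels above 1 or below -1, 410 genes were more than 2-fold apart. They were 3.45% of the 11871 genes whose mean reached 1 CPM in a group, 223 higher with EPZ5676 and 187 higher with MI-2-2. That number, which comes from means of 2 libraries, is below what separated single libraries of the same inhibitor. EPZ5676 replicates 1 and 2 were more than 2-fold apart at 534 genes and MI-2-2 replicates 1 and 2 at 556 genes. Across inhibitors, libraries of the same number were apart at 445 genes (number 1) and 525 genes (number 2), and libraries of different numbers at 897 and 1040 genes. A single library was therefore as close to the same-numbered library of the other inhibitor as to its own duplicate. Across the tested genes, Pearson's r of log2 CPM was 0.987 and 0.986 for same-numbered libraries of different inhibitors, 0.985 within each inhibitor, and 0.978 and 0.974 for different numbers.

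**Figure D2:**
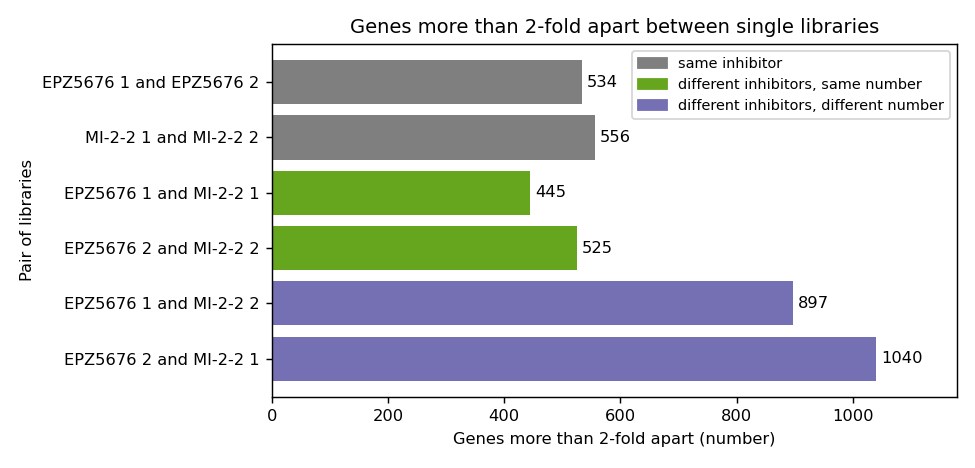
Bars give the number of genes more than 2-fold apart between single libraries (x axis, from 0) for each of the 6 pairs of the 4 libraries (y axis), after 0.1 CPM was added, among genes that reached the minimum of 1 CPM. Gray bars are duplicates of 1 inhibitor, green bars the inhibitors at the same number, and purple bars the inhibitors at different numbers, which reach 897 and 1040 genes.

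Several genes showed this arrangement by number. Fn1 was at 165 CPM in EPZ5676 replicate 1 and 62.8 CPM in MI-2-2 replicate 1, against 16.0 and 8.28 CPM in the replicates 2. Pgk1, a glycolytic kinase, was at 92.9 and 66.4 CPM in the replicates 1 of EPZ5676 and MI-2-2 and at 44.2 and 31.8 CPM in the replicates 2. Slc16a3, the lactate exporter MCT4, was at 602 and 510 CPM in the replicates 1 and at 323 and 268 CPM in the replicates 2, so that its EPZ5676 and MI-2-2 values overlapped (log2 ratio 0.26, SE 0.43). What the number marks in culture or sequencing is not given in the labels. With the number as a term of the fit, as an alternative, 2208 of 12597 genes (17.5%) were called, 1071 higher with EPZ5676 and 1137 higher with MI-2-2, of which 492 were more than 2-fold apart. That fit leaves 1 residual degree of freedom per gene and takes nearly all of its spread from other genes (104 prior degrees of freedom), so each of its calls rests on the pairing of numbers and on the shared spread. Calls are from the fit without the number unless the number is named.

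The fusion program differed by member. The list held 30 genes, of which 25 were tested and 0 called, while 14 had an unadjusted p below 0.05. In 12 of the 25 both MI-2-2 libraries lay above both EPZ5676 libraries and in 6 the reverse. Over all genes tested the corresponding shares were 21% (2640 of 12597) and 18.3% (2311 of 12597). The median log2 ratio of the list was -0.19, against 0.0018 over all genes, and it lay between -0.27 and -0.19 when any 1 of the 4 libraries was left out of the mean levels.

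The Hoxa cluster made up most of the members that were higher with MI-2-2. The cluster is described here by 9 of its genes, which are not all of its listed members. In these 9 genes both MI-2-2 libraries were above both EPZ5676 libraries, by 1.35-fold to 3.67-fold, and in 7 of the 9 the means differed by more than 2-fold. Hoxa9, the homeobox factor whose overexpression with Meis1 is itself leukemogenic, was at 276 and 288 CPM with EPZ5676 and at 401 and 362 CPM with MI-2-2 (log2 ratio -0.43, SE 0.13, adjusted p = 0.424). Hoxa10, its neighbor, was at 129 and 141 CPM with EPZ5676 and at 360 and 289 CPM with MI-2-2 (log2 ratio -1.26, SE 0.16, adjusted p = 0.139). Hoxa11 was at 56.3 and 58.0 CPM with EPZ5676 and at 205 and 187 CPM with MI-2-2 (log2 ratio -1.77, SE 0.12, adjusted p = 0.0565), and it passed the threshold without MI-2-2 replicate 1 or replicate 2 (adjusted p = 0.0281 and 0.0152) but not without either EPZ5676 library (0.511 and 0.701). Hoxa5 was at 33.6 and 26.7 CPM with EPZ5676 and at 97.8 and 88.3 CPM with MI-2-2 (log2 ratio -1.61, SE 0.18, adjusted p = 0.107). Hoxa3, toward the other end of the cluster, was at 16.5 and 9.93 CPM against 58.2 and 38.6 CPM. In the edgeR fit of the 4 libraries none of the 9 adjusted p-values passed 0.05. Other fits of the same libraries without the replicate number did call some of them. Hoxa11 passed in DESeq2 (adjusted p = 1.52e-23), edgeR with no filter (0.0101), edgeR with a minimum of 5 CPM (0.0475) and limma-trend (0.0477). It did not pass in edgeR with total counts (0.0557) or DESeq2 size factors (0.0559). Hoxa10 passed in DESeq2 (2.15e-08) and edgeR with no filter (0.0414) alone, whereas Hoxa9 passed in none of these. In edgeR fits of more libraries, Hoxa11 passed with the 8 inhibitor libraries (0.00196). With all 10 libraries it did not (0.7095, and 0.436 with the replicate number).

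The MM-401 and iBET libraries give a scale for this cluster. In 8 of the 9 Hoxa genes both EPZ5676 libraries were below every MI-2-2, MM-401 and iBET library, while both MI-2-2 libraries lay outside the range of MM-401 and iBET in 3 and at least 1 of them did in 7. For Hoxa11 the MM-401 libraries were at 226 and 224 CPM and the iBET libraries at 256 and 230 CPM. The DMSO libraries are not part of these counts. For Hoxa11 the DMSO libraries were too far apart to rank, at 189 and 18.4 CPM, and for Hoxa10 they were at 304 and 125 CPM. In both genes DMSO replicate 2 was below both EPZ5676 libraries. Hoxa5 (50.3 and 35.85 CPM in DMSO) and Hoxa9 (444 and 379 CPM in DMSO) had both DMSO libraries above both EPZ5676 libraries. Hoxa11 has an antisense partner, and whether the counting used strand is not given in the sources used here.

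**Figure D3:**
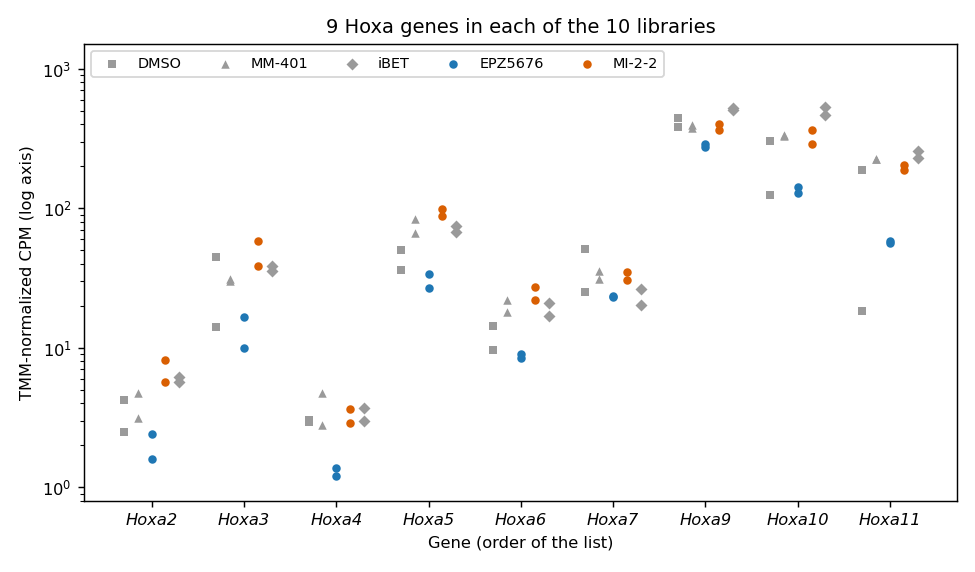
Levels of 9 Hoxa genes (x axis) in each of the 10 libraries (y axis, TMM-normalized CPM, log scale), with 2 points per group and gene, each a library. Blue points are EPZ5676, orange points MI-2-2 and gray symbols DMSO, MM-401 and iBET. For Hoxa11 the EPZ5676 points lie at 56.3 and 58.0 CPM and the MI-2-2 points at 205 and 187 CPM.

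Meis1, which codes for the TALE homeobox partner of Hoxa9, did not separate the inhibitors. It was at 0.676 and 1.79 CPM with EPZ5676 and at 0.651 and 1.13 CPM with MI-2-2 (log2 ratio 0.47, SE 0.58, 95% interval -1.004 to 1.94), against 34.1 and 43.3 CPM with MM-401 and 51.1 and 56.9 CPM with iBET. At 52 reads over the EPZ5676 libraries and 46 over the MI-2-2 libraries, the interval leaves room for a difference of more than 2-fold either way. Meis2 had 10 reads with EPZ5676 and 3 with MI-2-2 and was not tested. Flt3, a receptor tyrosine kinase of progenitors, had 0 reads in all 4 libraries, which allows up to 3 reads by counting error alone, and iBET had 2.57 and 3.23 CPM.

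Other members of the fusion program went the opposite way from the Hoxa genes. Erg, an ETS factor of stem cells, was at 34.9 and 31.2 CPM with EPZ5676 and at 17.1 and 16.4 CPM with MI-2-2 (log2 ratio 0.99, SE 0.15). Pbx3, which codes for another partner of HOX proteins, was at 21.7 and 31.7 CPM with EPZ5676 and at 12.9 and 14.5 CPM with MI-2-2 (log2 ratio 0.97, SE 0.22). Cdk6, the cyclin D kinase, had the order of the Hoxa genes, at 64.4 and 64.5 CPM with EPZ5676 and at 78.2 and 77.05 CPM with MI-2-2. Myb, a transcription factor of progenitors, was at 270 and 274 CPM against 240 and 226 CPM, and Myc was at 253 and 145 CPM against 183 and 135 CPM, with overlapping libraries. None of these passed the adjusted test.

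Genes of the targeted complexes lay close together between the inhibitors. Of 28 genes for DOT1L, MENIN, MLL and the elongation factors around them, all were tested, 0 were called, and for 26 the 95% interval lay inside 2-fold. Dot1l itself was at 102 and 85.1 CPM with EPZ5676 and at 104 and 101 CPM with MI-2-2 (log2 ratio -0.12, 95% interval -0.48 to 0.25). Men1, the gene of MENIN, was at 76.6 and 59.9 CPM against 78.0 and 51.5 CPM (log2 ratio 0.09, 95% interval -0.56 to 0.73). Both drugs act on the proteins, which these RNA levels do not report. The smallest p in this list belonged to Aff4, a scaffold of the super elongation complex, at 150 and 144 CPM with EPZ5676 and at 184 and 189 CPM with MI-2-2 (log2 ratio -0.33, SE 0.11, adjusted p = 0.486), and to Sirt1, a histone deacetylase, at 55.1 and 70.4 CPM against 35.9 and 49.4 CPM (log2 ratio 0.57, SE 0.20, adjusted p = 0.506).

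Primary granule genes, which neutrophil precursors express early, were listed together with progenitor genes such as Kit and Myb. Members of this mixed list lay mostly above their MI-2-2 level with EPZ5676. Of the primary granule and progenitor genes, 14 of 16 were tested and 1 was called, Fcnb, beside 0.0238% called over all genes tested. In 8 of the 14 both EPZ5676 libraries lay above both MI-2-2 libraries and in 1 the reverse (shares over all genes 18.3% and 21%). The median log2 ratio was 0.35 (on mean levels 0.34, and 0.59 without MI-2-2 replicate 1). Mpo, the myeloperoxidase of azurophil granules, was at 166 and 367 CPM with EPZ5676 and at 19.6 and 51.9 CPM with MI-2-2. Its libraries did not overlap, but duplicates were more than 2-fold apart in both groups (log2 ratio 2.91, SE 0.58, adjusted p = 0.252). Elane and Prtn3, the serine proteases elastase and proteinase 3, were at 1421 and 1222 CPM and at 764 and 896 CPM with EPZ5676, against 1040 and 643 CPM and 573 and 396 CPM with MI-2-2. Nkg7, a granule membrane protein, was at 3.33 and 4.76 CPM against 1.13 and 0.875 CPM (log2 ratio 2.02, SE 0.36, adjusted p = 0.224). Ctsg, which codes for the related protease cathepsin G, had the opposite order, at 309 and 456 CPM with EPZ5676 and at 737 and 623 CPM with MI-2-2.

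Genes of later granules and of the mature neutrophil surface lay on both sides. Of 24 neutrophil genes 23 were tested and 0 called, with both EPZ5676 libraries higher in 8, both MI-2-2 libraries higher in 6 (shares over all genes 18.3% and 21%) and a median log2 ratio of 0.26, which on mean levels lay between 0.11 and 0.48 without any 1 of the other 3 libraries and at -0.03 without EPZ5676 replicate 2. Camp (cathelicidin) and Olfm4 (olfactomedin 4), proteins of specific granules, were at 2456 and 3496 CPM and at 1408 and 1880 CPM with EPZ5676, against 1367 and 1352 CPM and 711 and 890 CPM with MI-2-2. The members with both MI-2-2 libraries higher were Retnlg, Mmp8, Mmp9, Cxcr2, Fpr1 and Fpr2. Retnlg (a resistin-like secreted protein) was at 125 and 177 CPM with EPZ5676 and at 409 and 501 CPM with MI-2-2 (log2 ratio -1.58, SE 0.20, adjusted p = 0.139). Cxcr2, the receptor for neutrophil chemokines, was at 139 and 132 CPM against 232 and 261 CPM (log2 ratio -0.85, SE 0.12, adjusted p = 0.158). Mmp9, the gelatinase of tertiary granules, was at 219 and 354 CPM against 561 and 830 CPM. Cebpe, the transcription factor that drives specific granule genes, was at 314 and 462 CPM with EPZ5676 and at 310 and 308 CPM with MI-2-2 (log2 ratio 0.34, SE 0.20, adjusted p = 0.697). Both inhibitors stood far above the rest of the series in this list, whose summed level was between 53990 and 82000 CPM in the 4 libraries and between 687 and 7507 CPM in the other 6.

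Macrophage and monocyte genes gave no list-wide direction that held. Of 30 genes 28 were tested and 0 called, 7 had both MI-2-2 libraries higher and 2 both EPZ5676 libraries higher (shares over all genes 21% and 18.3%). In the other 19 the libraries overlapped. The median log2 ratio of mean levels, -0.29, became 0.04 without EPZ5676 replicate 1 and 0.27 without MI-2-2 replicate 2. Summed levels followed the number, at 7061 and 6774 CPM in the replicates 1 and at 11270 and 11850 CPM in the replicates 2. The 2 members with the smallest p had libraries that did not overlap. Cd14, the lipopolysaccharide co-receptor, was at 46.1 and 48.5 CPM with EPZ5676 and at 87.2 and 98.9 CPM with MI-2-2 (log2 ratio -0.96, SE 0.13, adjusted p = 0.139). Ccr2, the receptor that draws monocytes out of the marrow, was at 106 and 88.9 CPM against 140 and 161 CPM (log2 ratio -0.61, SE 0.15, adjusted p = 0.347). Among cytokine genes Il1rn (the interleukin-1 receptor antagonist) was at 165 and 230 CPM against 314 and 414 CPM and the chemokine Ccl9 at 120 and 152 CPM against 218 and 298 CPM, both with adjusted p-values above 0.05 (0.332 and 0.281).

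Cell cycle genes lay slightly above their MI-2-2 level with EPZ5676. In 20 of 28 genes both EPZ5676 libraries lay above both MI-2-2 libraries and in 1 gene, Ccne1, the reverse, although 0 were called. Over all genes tested the corresponding shares were 18.3% and 21%. The median log2 ratio was 0.24, and it lay between 0.20 and 0.25 when any 1 library was left out. Cdk1, the mitotic kinase, was at 252 and 268 CPM with EPZ5676 and at 198 and 183 CPM with MI-2-2 (log2 ratio 0.46, SE 0.12, adjusted p = 0.378). Ccne2, a cyclin of S phase entry, was at 28.1 and 36.0 CPM against 20.3 and 22.1 CPM (log2 ratio 0.61, SE 0.17, adjusted p = 0.401). The size was below 2-fold throughout, and for 26 of the 28 genes the 95% interval lay inside 2-fold. Among CDK inhibitor genes Cdkn2c (p18) was at 12.7 and 19.9 CPM with EPZ5676 and at 6.25 and 9.37 CPM with MI-2-2 (log2 ratio 1.07, SE 0.31, adjusted p = 0.413), while Cdkn1a (p21) and Cdkn1b (p27) overlapped. Cdkn2a was at 16.3 and 20.1 CPM against 13.6 and 12.3 CPM (log2 ratio 0.50, SE 0.18, adjusted p = 0.511).

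**Figure D4:**
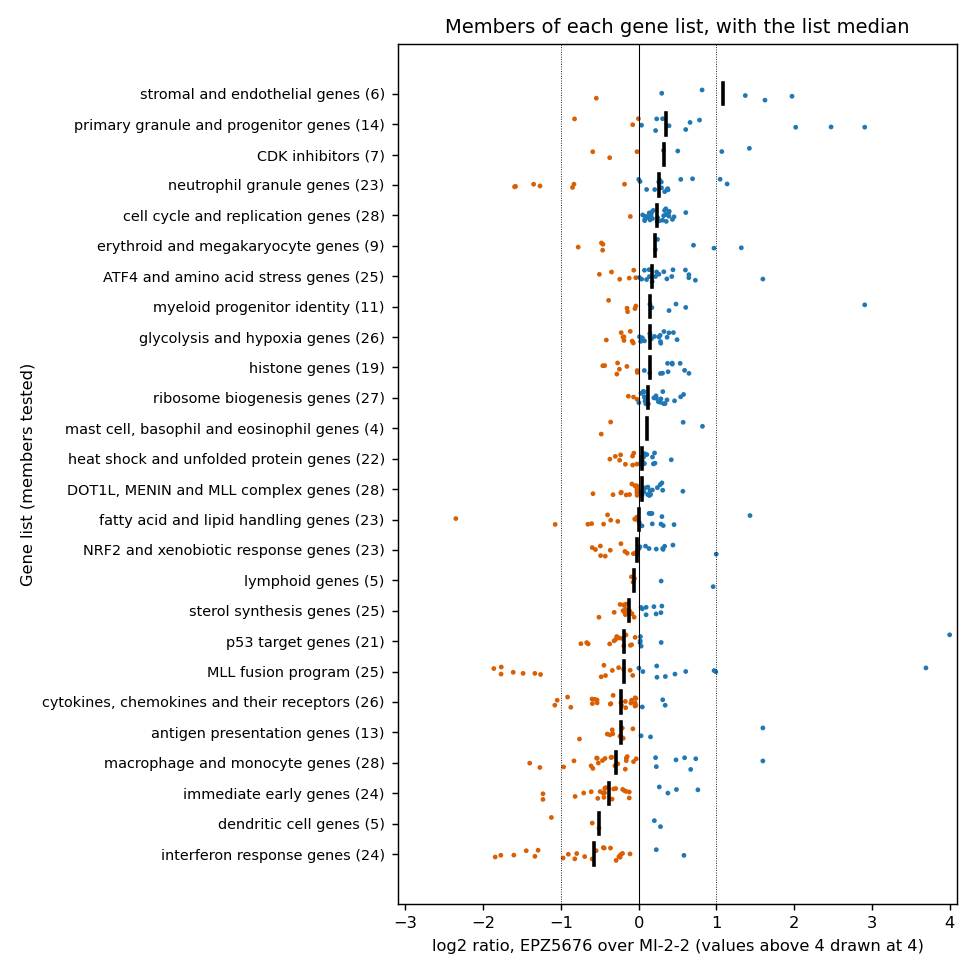
Each point is a tested member of 1 of 26 gene lists (y axis, number of members tested in brackets) at its log2 ratio of EPZ5676 over MI-2-2 (x axis), blue above 0 and orange below, and black bars are list medians. The medians run from -0.57 for interferon response genes to 1.09 for the 6 tested stromal and endothelial genes, and dotted lines mark 2-fold. The vertical scatter inside a row carries no value, and 1 p53 target at 5.16 is drawn at 4.

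The genes with the widest ratios covered many functions. The rule took the 10 lowest and the 10 highest ratios among genes with an unadjusted p below 0.05, libraries that did not overlap and at least 5 CPM in the higher group, and 17 of these 20 genes had adjusted p-values between 0.0737 and 0.332. The 3 called genes were among them. On the side higher with MI-2-2, Abcc3, a pump that exports conjugated drugs and bile acids, was at 34.3 and 27.3 CPM with EPZ5676 and at 160 and 144 CPM with MI-2-2 (4.93-fold, adjusted p = 0.0737). Both groups were above MM-401 and DMSO, where Abcc3 lay between 1.39 and 2.48 CPM. Apoc2, the apolipoprotein that activates lipoprotein lipase, was at 9.86 and 16.7 CPM against 72.6 and 66.4 CPM (5.24-fold, adjusted p = 0.107). Glyat, a mitochondrial glycine acyltransferase, was at 2.51 and 2.54 CPM against 14.8 and 17.7 CPM (6.43-fold, adjusted p = 0.0748).

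The remaining genes on that side had fewer reads. Ly6c1 was at 1.11 and 1.18 CPM with EPZ5676 and at 13.8 and 9.37 CPM with MI-2-2, a value that is uncertain because its close paralog Ly6c2, with at least 1113 CPM in each of the 4 libraries, can share reads with it. Akr1c18, a steroid dehydrogenase that inactivates progesterone, was at 0.870 and 1.70 CPM against 10.7 and 8.79 CPM. Slc22a3, an organic cation transporter, was at 1.26 and 0.612 CPM against 9.41 and 5.36 CPM, both well under the 31.1 to 65.1 CPM of MM-401 and iBET. Palld (palladin, an actin-binding protein) and Tespa1 (a T cell signaling adaptor) were 5.2-fold and 5-fold higher with MI-2-2.

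On the side higher with EPZ5676, Cyp26a1 and Mpo joined Fcnb. Cyp26a1, the enzyme that clears retinoic acid, was at 21.1 and 21.6 CPM with EPZ5676 and at 2.52 and 1.02 CPM with MI-2-2 (12.1-fold, adjusted p = 0.139). The other 6 libraries were at or below 5.70 CPM, so that only the EPZ5676 libraries exceeded 6 CPM. Flt1, a receptor for VEGF, was at 15.2 and 14.5 CPM against 2.73 and 3.72 CPM (4.6-fold, adjusted p = 0.107), with MM-401 at 16.9 and 18.9 CPM. Slc32a1, the vesicular transporter of GABA, was at 23.7 and 23.4 CPM against 5.16 and 4.08 CPM (5.09-fold, adjusted p = 0.0937). Pknox2, a TALE homeobox factor, was at 5.07 and 15.4 CPM against 0.130 and 0.620 CPM, with the EPZ5676 duplicates more than 2-fold apart (27.4-fold, adjusted p = 0.224). Dennd5b, a regulator of Rab GTPases, was at 4.98 and 5.41 CPM against 0.260 and 0.365 CPM, from 16 reads in all with MI-2-2 (16.6-fold, adjusted p = 0.0954). Tex15 (a germ cell protein), Tcf24 (a basic helix-loop-helix factor) and Ush1c (a scaffold protein) were between 5.06-fold and 5.74-fold higher with EPZ5676.

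**Figure D5:**
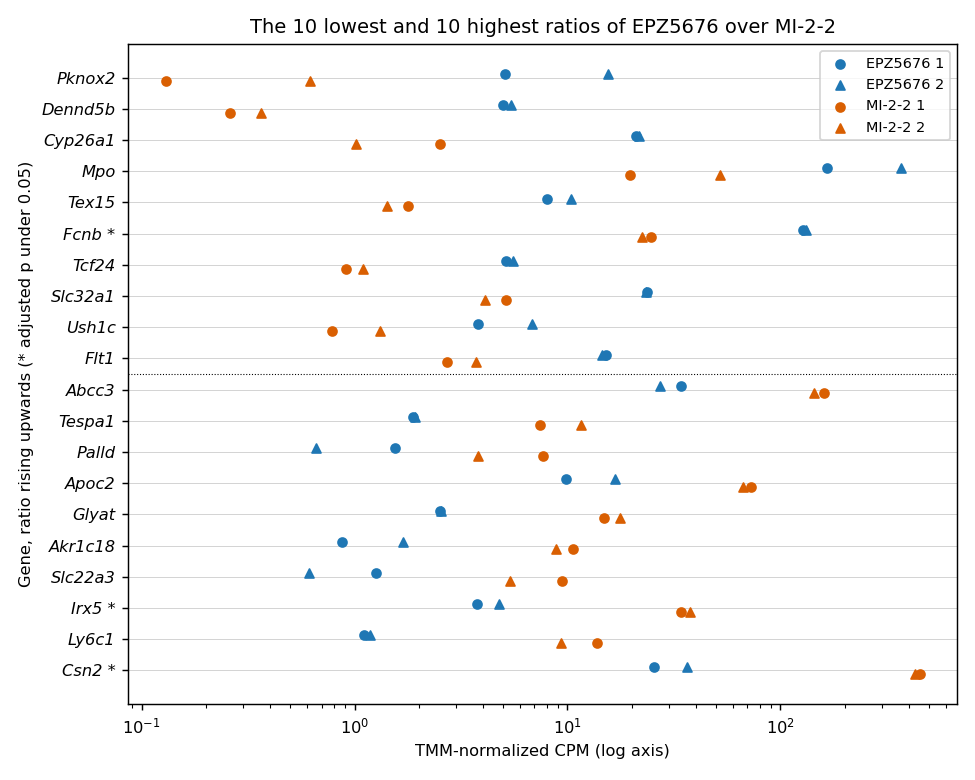
Levels of the 20 genes with the lowest and highest ratios (y axis, ordered by ratio, with a dotted line between the sides) in the 4 libraries (x axis, TMM-normalized CPM, log scale). Blue symbols are EPZ5676 and orange symbols MI-2-2, circles replicate 1 and triangles replicate 2, and an asterisk marks the 3 called genes. In every gene both symbols of 1 color lie to 1 side of both symbols of the other, as the rule required.

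Genes bound by both MLL1 and the fusion protein, which the study took from chromatin immunoprecipitation, lay on both sides in near equal number. Of 1368 symbols 1348 were found and 957 tested, and 0 were called. An unadjusted p below 0.05 was found for 124 of the 957, beside 1153 of 12597 over all genes tested. Both EPZ5676 libraries lay above both MI-2-2 libraries in 203 genes and below in 224, with a median log2 ratio of -0.00025. The shares over all genes were 18.3% and 21%, and the 203 and 224 of 957 lay near them. With the replicate number as a term 230 of the 957 (24%) were called, beside 17.5% over all genes. Of these 112 were higher with EPZ5676 and 118 higher with MI-2-2. For 709 of the 957 the 95% interval lay inside 2-fold. The smallest p-values in the list were those of Fut8, a fucosyltransferase, at 64.3 and 66.7 CPM with EPZ5676 and at 172 and 150 CPM with MI-2-2 (log2 ratio -1.29, SE 0.13, adjusted p = 0.0977), and of Perp, a p53 target of cell junctions, with 67 reads over the EPZ5676 libraries and 2 over the MI-2-2 libraries. Fut8 was at 410 and 564 CPM in DMSO and between 397 and 537 CPM with MM-401 and iBET.

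With the number as a term, list counts spread over the same groups. In the fusion program list 15 of 25 genes were then called, 10 higher with MI-2-2 and 5 higher with EPZ5676, beside 17.5% over all genes. The counts were 8 higher with EPZ5676 and 1 higher with MI-2-2 of 14 primary granule and progenitor genes, 12 and 0 of 28 cell cycle genes, 2 and 13 of 24 immediate early genes, 0 and 14 of 24 interferon response genes, 5 and 6 of 23 neutrophil granule genes, 5 and 9 of 28 macrophage genes, and 2 and 2 of 28 genes of the targeted complexes. Hoxa5, Hoxa9, Hoxa10 and Hoxa11 were called there, with adjusted p-values of 8.36e-23, 0.00212, 1.45e-17 and 3.00e-27, and Mpo with 3.26e-43, while Dot1l, Men1 and Meis1 were not.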

How the data were processed

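RNA sequencing of MAF9 cells gave 10 libraries, 2 for each of DMSO, iBET, MM-401 and the compared inhibitors, assigned from their labels. The authors deposited read counts per gene symbol, not normalized, for 24015 genes. The submitters' processing notes name TopHat2, Subread, DESeq and the mm9 build. The sources used here give no versions, no strand setting and no treatment of shared reads. Every sample column of the table was used or read (0 unused).

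The 4 EPZ5676 and MI-2-2 libraries were fitted on group alone with edgeR 4.0.16 under R 4.3.3, after filterByExpr and TMM scaling, by glmQLFit and glmQLFTest, with Benjamini-Hochberg adjustment over the 12597 genes tested and a threshold of 0.05. The SE is the log2 ratio's size divided by the square root of F, and 95% intervals use the moderated degrees of freedom. Printed CPM are TMM-normalized over the 10 libraries. The fold rule added 0.1 CPM. Depths were 21249483 to 29473127 reads, and intervals and limits on 0 reads cover counting error only. Alternatives were other scalings, filters, DESeq2 1.42.0, limma 3.58.1, fits of 8 and 10 libraries, the replicate number as a term, and leaving out each library. Fits were tested on simulated data, where the fit without the replicate number missed most 2-fold changes, so that a gene not called is not shown to be alike. Figures were drawn with matplotlib 3.10.9 in Python 3.11.15.

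Named genes are the calls, the 10 lowest and 10 highest ratios (unadjusted p under 0.05, at least 5 CPM, no overlap of libraries), genes of the targets or named by the study, and the 2 smallest p-values of each list. Further list members are examples chosen after their values were seen. A total of 591 of 595 list entries were matched to the counts, 5 of them not by symbol. The comparison, the lists and the motif were chosen with earlier results of these data known. Some list members are not reported here by name, for reasons unrelated to their values, and are left out of the counts over Hoxa genes but not of the list counts. Promoters were matched for 2 of the 3 called genes.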

Additional observations from a re-analysis of the deposited data

How the results depend on the processing

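The count of genes called between EPZ5676 and MI-2-2 (3) was within 1.5 times of itself with DESeq2 size factors, total counts, a minimum of 5 CPM, limma-trend and both fits of all 10 libraries, but neither 10-library fit called Csn2, Irx5 or Fcnb. It was 252 with DESeq2, 35 with no filter, 126 with the 8 inhibitor libraries and between 0 and 26 when 1 library was left out, where the lone library of a group is assumed to vary like the other group, and the cause was not tested. The replicate block gave 2208 calls with 4 libraries, 856 with 8, 765 in DESeq2 and 2218 in limma-trend. The difference between replicates 1 and 2 correlated with r = 0.712 across 12597 genes between EPZ5676 and MI-2-2, and with r between 0.312 and 0.532 for other pairs of groups. The labels do not say that a number marks a shared culture or run, so pairing is a hint from the data only. The DESeq2 and limma-trend fits with the block, limma-trend without it and the list medians without each library were chosen after seeing the data. The 410 genes more than 2-fold apart became 226 with 1 CPM added, 728 with no minimum, 217 with a minimum of 5 CPM and 531 to 622 without 1 library. The count of 8962 genes with an interval inside 2-fold ranged from 7562 to 10933, and the calls against MM-401 and iBET with the block from 7118 to 7944. Uncalled ratios changed sign without EPZ5676 replicate 1 (Men1 to -0.1254, Slc16a3 to -0.2852), without EPZ5676 replicate 2 (Dot1l to 0.0255, Meis1 to -0.3718, Egr2 to 0.1902) and without MI-2-2 replicate 2 (Men1 to -0.1937, Slc16a3 to -0.1404, Zfp385a to 0.1196). The other ends of these genes' ranges without 1 library were -0.2787 for Dot1l, 0.4331 for Men1, 0.9864 for Meis1, -1.578 for Egr2, 0.8169 for Slc16a3 and -0.4992 for Zfp385a. With 2 libraries a group, the median SE of a log2 ratio was 0.184, which limits what size of difference a single gene could show.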

Other observations

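Interferon response genes had the lowest list median, a log2 ratio of -0.57 over 24 of 28 genes tested, with 0 called. Both MI-2-2 libraries were higher in 10 genes and both EPZ5676 libraries in 1 (shares over all genes 21% and 18.3%). With the replicate number as a term 14 were called, all of them higher with MI-2-2, beside 17.5% called over all genes. The level was highest in MI-2-2 replicate 1. The summed level was 1105 CPM there, against 742 CPM in MI-2-2 replicate 2 and 782 and 669 CPM with EPZ5676. Ifit1, whose product binds viral RNA, was at 8.41 CPM in MI-2-2 replicate 1 and at 1.68, 1.64 and 1.65 CPM in the other 3 libraries. Without MI-2-2 replicate 1 the median log2 ratio of mean levels moved from -0.58 to -0.02. The members with the smallest p were Bst2 (tetherin), at 28.9 and 32.0 CPM with EPZ5676 and at 52.7 and 39.9 CPM with MI-2-2, and Xaf1, at 2.56 and 1.60 CPM against 8.41 and 3.03 CPM.

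Immediate early genes kept a negative median under every library left out (-0.50 to -0.14). Both MI-2-2 libraries were higher in 11 of 24 genes tested and both EPZ5676 libraries in 2, with 0 called (15 called with the replicate number as a term, 13 of them higher with MI-2-2). The shares over all genes were 21% and 18.3%, and 17.5% were called with the number. Egr1, a growth factor-induced zinc finger factor, was at 105 and 64.6 CPM with EPZ5676 and at 198 and 205 CPM with MI-2-2 (log2 ratio -1.23, SE 0.25), and Egr3 at 8.99 and 4.57 CPM against 11.9 and 20.3 CPM, whereas Egr2 overlapped at 16.6 and 4.99 CPM against 11.9 and 17.8 CPM. Jun went the other way, at 95.2 and 116 CPM against 69.4 and 82.5 CPM.

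Tfrc, the transferrin receptor through which cells take up iron, was at 552 and 579 CPM with EPZ5676 and at 302 and 279 CPM with MI-2-2 (log2 ratio 0.97, SE 0.13, adjusted p = 0.139), while the globins of the same list had no read. Psat1, an enzyme of serine synthesis, was at 259 and 199 CPM against 161 and 134 CPM. Cpt1a, the gate of fatty acid oxidation, was at 142 and 118 CPM against 186 and 213 CPM. None of these passed the adjusted test. In glycolysis and hypoxia genes, 25 of 26 had overlapping libraries, against 7646 of 12597 over all genes tested. The summed level was 14030 and 12980 CPM in the replicates 1 of EPZ5676 and MI-2-2 and 8150 and 7637 CPM in the replicates 2.

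Lists of the remaining pathways had 0 called genes and medians nearer to 0 than the interferon response and immediate early genes. With the replicate number as a term, 50% of cytokine, 46.2% of antigen presentation, 40% of ATF4 and 39.1% of lipid genes were called. Of these calls 1 was higher with EPZ5676 and 12 with MI-2-2 for cytokine genes. The same counts were 1 and 5 for antigen presentation, 9 and 1 for ATF4 and 2 and 7 for lipid genes. Other lists of this paragraph had between 9.09% and 30.4% called, beside 17.5% over all genes. For ribosome biogenesis the median log2 ratio was 0.12 over 27 genes. Both EPZ5676 libraries were higher in 7 and both MI-2-2 libraries in 0 (shares over all genes 18.3% and 21%). Npm1, the nucleolar chaperone, was at 157 and 215 CPM against 119 and 132 CPM. ATF4 and amino acid stress genes had a median of 0.17 over 25 genes, which on mean levels was -0.05 without EPZ5676 replicate 1. Targets of p53 had a median of -0.19 over 21 genes, with both MI-2-2 libraries higher in 8 and both EPZ5676 libraries higher in 2 (shares over all genes 21% and 18.3%). On mean levels it moved from -0.20 to -0.10 without EPZ5676 replicate 1 and -0.12 without MI-2-2 replicate 1. Cytokine and receptor genes had a median of -0.22 over 26 genes, which on mean levels moved from -0.24 to -0.10 without MI-2-2 replicate 2. Antigen presentation genes had a median of -0.22 over 13 genes, which on mean levels moved from -0.24 to -0.40 without EPZ5676 replicate 1, -0.03 without MI-2-2 replicate 1 and -0.45 without MI-2-2 replicate 2. The medians were -0.12 over 25 sterol synthesis genes, 0.0088 over 23 fatty acid and lipid genes, -0.02 over 23 NRF2 targets, 0.05 over 22 heat shock genes and 0.14 over 19 histone genes. Leaving out 1 library changed the sign of the sterol median (0.02 without MI-2-2 replicate 1), the histone median (-0.04 without MI-2-2 replicate 2) and the heat shock median (-0.11 without EPZ5676 replicate 2 and -0.07 without MI-2-2 replicate 1). The ribosome biogenesis median lay between 0.02 and 0.28 and the histone median reached 0.35 without MI-2-2 replicate 1.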
